A study of Homo sapiens with 10 samples.

Results

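Open chromatin was compared between parental SW480 and parental LS174T cells, 2 human colorectal adenocarcinoma cell lines, in 2 bulk ATAC-seq libraries of the 10 samples of the series. These 2 libraries were chosen by their labels as the unpassaged parental stage of each line, and no library of a liver-passaged derivative was used. From them, 16347 peaks of SW480 and 203286 peaks of LS174T on chromosomes 1 to 22 and X entered the comparison. The study passaged both lines serially in immunodeficient mice as liver metastases, and the parental cells are the starting point of those lineages. The labels name no added allele or treatment for parental SW480 or parental LS174T, and both were grown in DMEM with fetal bovine serum and penicillin/streptomycin. Each line was measured in 1 library, so that line, library and depth cannot be told apart and no p-value is given. All intervals below are at 95% and cover counting error only.

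ATAC-seq uses a transposase to cut DNA that is not wrapped tightly, so that peaks of cut sites mark active gene starts and distal regulatory elements. Gene starts are often open in many cell types, whereas distal elements tend to be open in few. In the colon, epithelial identity is kept by transcription factors such as CDX1, CDX2, HNF4A and GATA6, and secretory cells are specified through ATOH1. LS174T is known as a mucin-producing line with goblet-like features, and SW480 as a poorly differentiated line with features of a mesenchymal state.

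The 2 libraries differed widely in depth. The genome background behind the peak calls, recovered from the deposited values, was 0.757 reads in SW480 and 13.1 reads in LS174T, a ratio of 17.3 in favour of LS174T. Median summit pileup, the number of reads that cover the highest point of a peak, was 14 reads in SW480 and 38 reads in LS174T. The weakest peak called had 6 reads in SW480 and 25 reads in LS174T. Peaks covered 6.36 Mb in SW480 and 85.3 Mb in LS174T. Of the peaks, 45.0% (44.3 to 45.8%) lay within 1000 bases of a gene start in SW480 and 7.22% (7.11 to 7.33%) in LS174T. A peak missing from SW480 can therefore reflect its lower depth, whereas depth worked in favour of finding SW480 peaks in LS174T.

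Sequences are shown for 6 promoters at which a peak was called in 1 line alone, the 250 bases before the annotated start from RefSeq, build GRCh38.p14, written 5′ to 3′ on the strand of the gene. TLE4, a Groucho-family co-repressor, and SYT3, a synaptotagmin, had a peak in SW480 alone. CDX2, GATA6 and HNF4A, transcription factors of the gut epithelium, and AGR2, a disulfide isomerase that goblet cells need for mucin, had one in LS174T alone. Capitals mark matches on either strand to the GC box GGGCGG, the CCAAT box, the GATA word AGATAA, the CDX word TTTATNG, the HNF1 word GTTAATNA and the forkhead word TGTTTAC.
TLE4, chr9:79571715-79571964, plus strand: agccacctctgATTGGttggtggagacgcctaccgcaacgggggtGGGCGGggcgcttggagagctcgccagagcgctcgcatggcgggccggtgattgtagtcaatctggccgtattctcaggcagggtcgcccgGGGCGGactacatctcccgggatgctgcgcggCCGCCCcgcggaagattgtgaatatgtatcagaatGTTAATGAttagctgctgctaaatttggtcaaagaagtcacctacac
SYT3, chr19:50658106-50658355, minus strand: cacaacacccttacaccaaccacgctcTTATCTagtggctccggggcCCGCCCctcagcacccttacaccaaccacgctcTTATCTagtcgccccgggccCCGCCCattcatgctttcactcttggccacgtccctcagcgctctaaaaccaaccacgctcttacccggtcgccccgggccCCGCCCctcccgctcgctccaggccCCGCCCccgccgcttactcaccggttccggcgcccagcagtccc
CDX2, chr13:27969316-27969565, minus strand: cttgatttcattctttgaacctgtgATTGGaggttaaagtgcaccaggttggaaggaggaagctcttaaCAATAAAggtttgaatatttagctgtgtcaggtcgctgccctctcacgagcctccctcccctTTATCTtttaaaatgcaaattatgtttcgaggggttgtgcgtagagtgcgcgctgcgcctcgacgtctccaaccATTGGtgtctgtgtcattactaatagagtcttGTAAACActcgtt
GATA6, chr18:22169339-22169588, plus strand: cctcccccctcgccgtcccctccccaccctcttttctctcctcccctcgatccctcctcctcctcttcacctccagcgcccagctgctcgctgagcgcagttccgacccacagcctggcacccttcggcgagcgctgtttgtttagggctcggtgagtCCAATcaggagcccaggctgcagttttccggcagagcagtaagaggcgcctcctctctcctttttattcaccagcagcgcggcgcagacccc
HNF4A, chr20:44355449-44355698, plus strand: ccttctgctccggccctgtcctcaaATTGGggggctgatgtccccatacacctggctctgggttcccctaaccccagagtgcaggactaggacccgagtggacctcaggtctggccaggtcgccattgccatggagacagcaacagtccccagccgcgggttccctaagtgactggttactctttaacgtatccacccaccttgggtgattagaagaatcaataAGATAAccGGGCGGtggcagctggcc
AGR2, chr7:16805000-16805249, minus strand: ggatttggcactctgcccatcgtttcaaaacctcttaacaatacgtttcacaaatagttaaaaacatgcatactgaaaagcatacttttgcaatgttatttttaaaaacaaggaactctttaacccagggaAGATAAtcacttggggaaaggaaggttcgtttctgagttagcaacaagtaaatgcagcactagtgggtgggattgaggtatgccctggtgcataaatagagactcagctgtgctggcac
The SW480 peak covered all 250 bases at TLE4 and at SYT3. The LS174T peak covered all 250 bases at CDX2, HNF4A and AGR2, and 207 of them at GATA6. GC content was 59.2% at TLE4 and 67.2% at SYT3, against 45.2% at CDX2, 64.4% at GATA6, 58.4% at HNF4A and 40.4% at AGR2. GC boxes stood 3 times in the TLE4 window and 4 times in that of SYT3, once in that of HNF4A, and in none of the CDX2, GATA6 and AGR2 windows.

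Most open regions of SW480 were open in LS174T too when the full LS174T list was used. Of the 16347 SW480 peaks, 74.2% (73.5 to 74.8%) were overlapped by an LS174T peak by at least 1 base. Against an LS174T list cut to the same length, the share was 43.8%. At gene starts the share was 90.5% (89.8 to 91.1%), and away from gene starts it was 60.8% (59.8 to 61.9%). The share depended on peak strength. It was 92.0% in the best 10% of the SW480 list by -log10 q and 49.7% in the weakest 10%. Among the best 1000 SW480 peaks, 609 of the 612 at gene starts had an LS174T peak, against 332 of the 388 away from them. The share was thus lower away from gene starts among strong peaks too, 85.6% (81.7 to 88.9%) against 99.5% (98.6 to 99.9%) at gene starts.

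In the other direction, 5.92% (5.81 to 6.02%) of the LS174T peaks had an SW480 peak, with 44.9% at gene starts and 2.88% away from them. Depth alone lowers this share, so a calling limit was applied. The pileup expected in SW480 was set to 0.0927 times that of LS174T, the median ratio over strong LS174T peaks at gene starts. A peak was kept where the lower 2.5% Poisson point of this expectation reached the pileup that SW480 needed for a call. Only 5563 LS174T peaks (2.74%) were strong enough by this limit, and 62.9% (61.6 to 64.2%) of them had an SW480 peak. Away from gene starts 35.7% (33.8 to 37.6%) of them were found, against 85.7% (84.4 to 86.9%) at gene starts. The scale was itself set at gene starts, so the limit cannot show on its own that distal peaks fall short. Without any scale, of the best 1000 LS174T peaks, 594 of the 622 at gene starts and 182 of the 378 away from them had an SW480 peak.

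**Figure D1:**
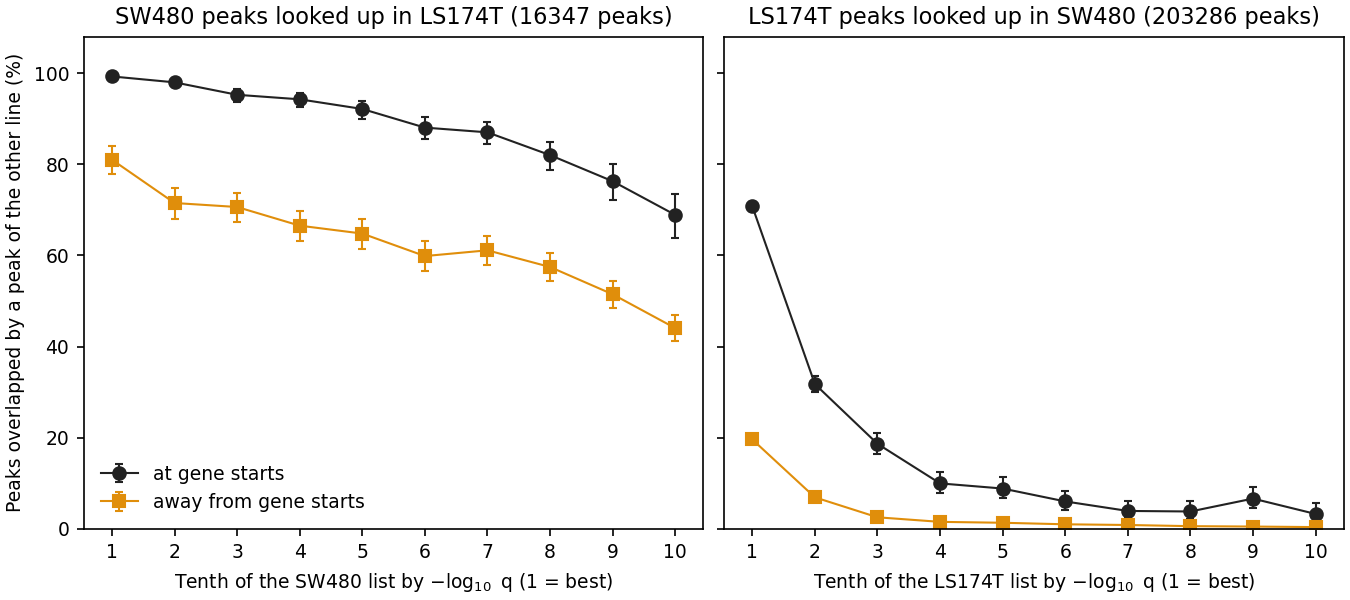
Share of peaks overlapped by a peak of the other line (vertical axis, %) in each 10% of a list by -log10 q (horizontal axis), for SW480 peaks looked up in LS174T (left) and LS174T peaks looked up in SW480 (right), with 95% Clopper-Pearson intervals as bars. Peaks at gene starts (circles) lie above those away from starts (squares) in every class of both lists, with 99.3% against 81.0% in the best SW480 class and 68.9% against 44.1% in the weakest.

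SW480 had 4221 peaks with no LS174T peak, and all of them passed the calling limit in LS174T, since 10.8 times their pileup exceeded what LS174T needed. At this scale the limit removed none of them, so passing it sets no absent SW480 peak apart. Of these, 702 lay at gene starts and 3519 (83.4%) away from them. Their median pileup was 12 reads, and 1733 of them had at least 14 reads and 660 at least 20. The limit takes each summit count at face value, so the stronger peaks are the firmer part of the set. LS174T had 2064 peaks past the limit with no SW480 peak, 432 at gene starts and 1632 (79.1%) away from them, with a median pileup of 169 reads. This count rests on the scale, being 60 with the ratio of genome backgrounds and 9869 with the median ratio of all shared peaks, and it was 200 at a -log10 q of at least 5.

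The strongest distal SW480 peak absent from LS174T lay at chr8:127853948-127854706, 111 kb from the 3′ end of MYC, the growth-promoting transcription factor. It had 90 reads (72.4 to 111), a rank of 21 among all SW480 peaks, and an expected LS174T pileup of 971 reads where 202 would have been called. Both LS174T figures rest on scales for the whole lists. Shared peaks from 125 to 130 Mb of chromosome 8 had a median of 2.62 times the ratio of all shared peaks. Median local background in SW480 was 4.62 reads there, against 1.73 over all SW480 peaks. Both figures can thus be too high for this peak. The next peak, with 69 reads, lay at chr5:956988-957958, between TRIP13 and NKD2. Others lay 14.3 kb from CHRNA1, a muscle acetylcholine receptor subunit, with 54 reads, and 12.6 kb from DNMT3B, a de novo DNA methyltransferase, with 52 reads. Peaks near AZIN2, an antizyme inhibitor, with 46 reads, and near ABHD16B with 63 reads completed the 6 of best rank. At the scale used all 6 were well past the limit, the smallest expected LS174T pileup being 496 reads where 83 were needed.

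Among LS174T peaks absent from SW480 and away from gene starts, the one of best rank had 240 reads at chr1:123195582-123195832. It lay 1799 kb from the nearest gene start, in the part of the build that models the centromere. The fifth, with 647 reads at chr16:46394497-46395058, also borders centromeric sequence. Peaks in repeats were not filtered out, and reads there can be placed at several copies. The others lay near genes. A peak of 303 reads at chr3:185796457-185797306 was 24.4 kb from the start of IGF2BP2, an mRNA-binding protein of growth pathways. Peaks of 361 reads near MLXIP, a glucose-sensing transcription factor also called MondoA, of 308 reads near APIP, an enzyme of methionine salvage, and of 286 reads near RAPGEF4, a cAMP-activated exchange factor, followed. At these 4 the expected SW480 pileup was 26.5 to 33.5 reads, where 8 to 10 were needed.

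Of 19974 protein-coding genes, 7596 (38.0%) had a start peak in both lines and 6170 in neither. A start peak in SW480 alone was found at 379 genes, 1.90% of all. A start peak in LS174T alone was found at 5829 genes, 29.2% of all, of which 419 (2.10% of all) passed the calling limit. Where the reference gave no start, a peak within 1000 bases of either gene end counted, which was so for 4162 genes.

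The SW480-alone gene of best rank was SYT3, with a peak of 64 reads that also lies beside the 3′ end of its neighbour SHANK1, a postsynaptic scaffold. With a window of 2500 bases SYT3 was open in both lines, and with 250 bases SHANK1 was open in neither. The expected LS174T pileup was 690 reads, where 104 would have been called. ZNF10 and ZNF891, zinc-finger genes that share a bidirectional start, had 32 reads. TGM2, a tissue transglutaminase, had 39 reads. TOR4A of the torsin family had 33 reads, NUMBL, a Numb-like adaptor, had 29 reads, and TLE4 had 23 reads. Another 3 of the first 12 carry only locus names: LOC102724159 and LOC102724200, which share a peak of 18 reads on chromosome 21, and LOC124902474 with 32 reads. LOC102724200 was open in neither line with a window of 250 bases. All 12 passed the limit in LS174T, as did every SW480 peak with no LS174T peak.

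Among genes with a start peak in LS174T alone and past the limit, ARHGEF38, a guanine nucleotide exchange factor, led with 291 reads, where SW480 was expected to have 27.0 reads and needed 8. DNAH6, an axonemal dynein chain, had 252 reads, and was open in both lines when either gene end was used. MRPL55 of the mitochondrial ribosome had 263 reads. ARFIP2 and TIMM10B share a peak of 236 reads, and CCDC163 shares one of 244 reads with MMACHC, which is needed for vitamin B12 processing. MLF1 had 223 reads, TPRG1 198 reads, FAM86B2 181 reads and RABL2B 179 reads. The TPRG1 peak lies at the 3′ end of the gene and not its start. FAM86B2 and RABL2B have near-identical copies elsewhere in the genome, so their reads are uncertain. None of the 12 genes of best rank is on the list of gut transcription factors.

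Most gut transcription factors had a peak at the gene start or end in LS174T and no call in SW480. Of 30 listed, 14 had no annotated start and were judged at either gene end, a peak at either counting as a start peak. Of the 30, 0 had a start peak in SW480 alone, 21 in LS174T alone (70.0%, against 29.2% of all genes), 6 in both and 3 in neither. GATA6 had 165 reads in LS174T, GRHL2 134, SOX9 124 and ONECUT2 114. HNF4A had 119 reads and CDX2 111, again in LS174T alone. CDX1 had 157 reads in LS174T alone, but this peak lies beside the 3′ end of the gene and not its start. At the 6 shared starts, KLF5 had 29 reads in SW480 and 178 in LS174T, and ELF3 had 11 reads in SW480 and 189 in LS174T. FOXA3 had 35 reads in SW480 and 268 in LS174T, while SW480 had 12, 19 and 11 reads at FOXA2, VDR and OVOL1, where LS174T had 98, 127 and 76. At FOXA2 the peaks of the lines did not overlap, and at OVOL1 they lie at the 3′ end. None of the 21 passed the calling limit. With a window of 250 bases around the start, CDX1 had a peak in neither line. For GATA6, SW480 was expected to have 15.3 reads and needed 9, and for CDX2 10.3 reads and needed 9.

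Because single genes of this strength fall under the limit, the lists were also read by pileup class in LS174T. Of 6985 genes with an LS174T start peak of 100 reads or more, 5499 (78.7%) had an SW480 start peak. Of the 14 gut transcription factors with 100 reads or more, 4 had one (28.6%, 8.39 to 58.1%). The same count was 2 of 8 enterocyte genes, 4 of 6 goblet and secretory genes, 12 of 21 junction and keratin genes and 4 of 9 detoxification genes. By contrast it was 19 of 21 broadly used genes (90.5%), 11 of 12 mismatch repair genes, 16 of 18 colorectal cancer driver genes and 14 of 16 AP-1, YAP and TEAD genes. Between 100 and under 200 reads, 3 of 13 gut transcription factors (23.1%, 5.04 to 53.8%; median 127 reads) had an SW480 start peak, against 4147 of all 5568 genes (74.5%, 73.3 to 75.6%; median 138 reads). In that class it was 1 of 7 enterocyte genes, 8 of 17 junction and keratin genes and 14 of 16 broadly used genes. Over all classes, the share of genes with an SW480 start peak was 12.4% where LS174T had under 50 reads, 65.7% at 100 to under 125 and 99.1% at 300 or more.

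**Figure D2:**
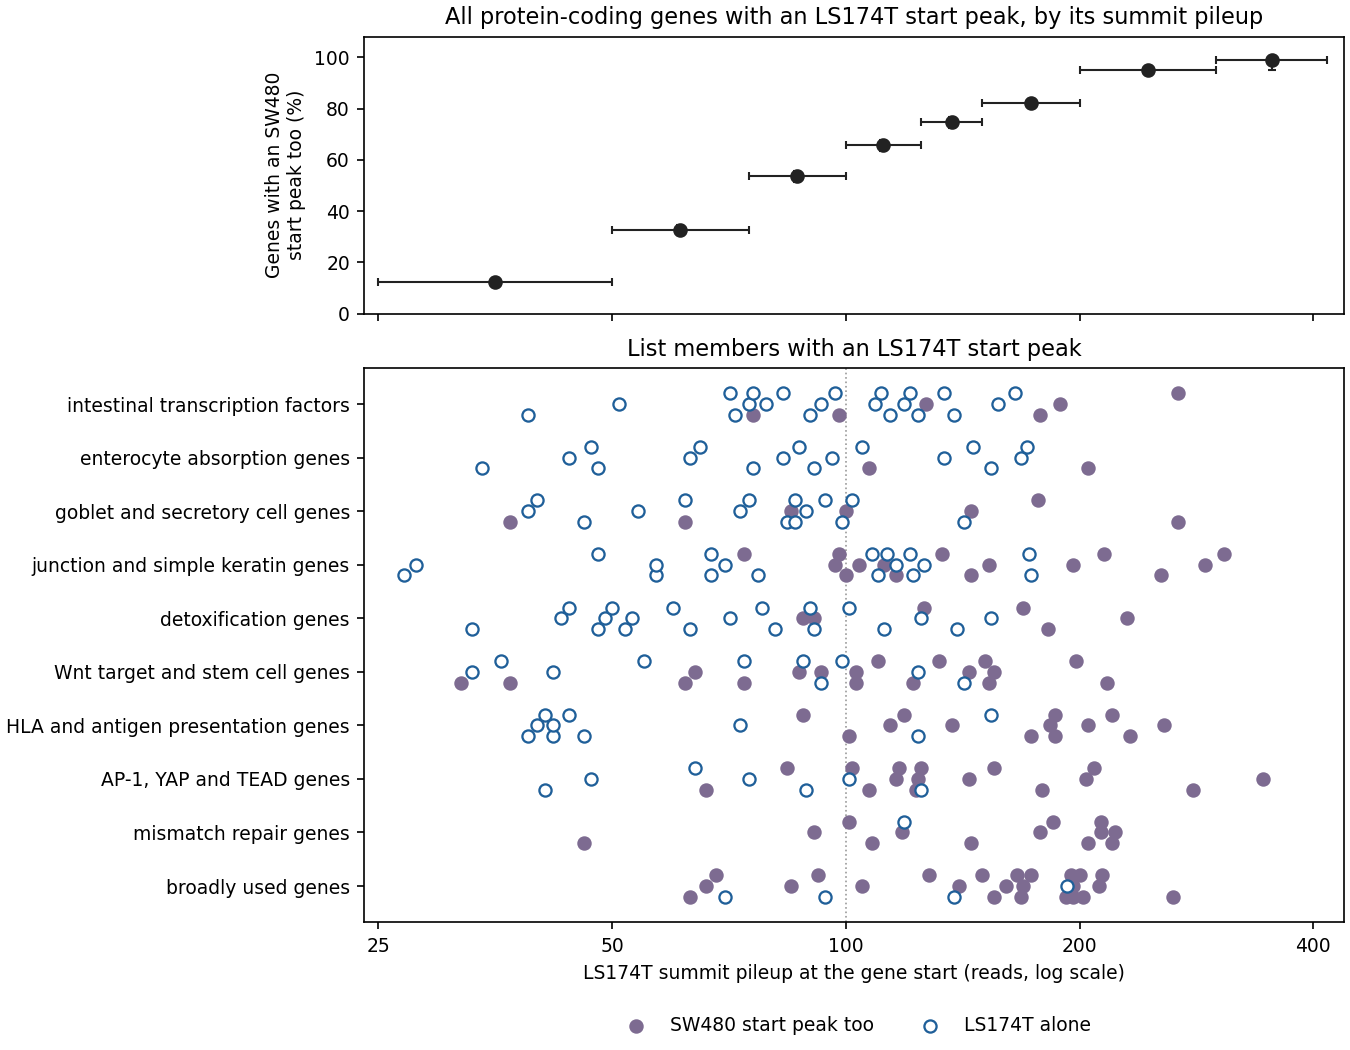
Upper panel: share of all genes with an LS174T start peak that have an SW480 start peak too (vertical axis, %), by LS174T summit pileup in reads (horizontal axis, log scale), with 95% intervals and class widths as bars. Lower panel: each point is a list member with an LS174T start peak, filled where SW480 has one too and open where LS174T alone has it. To the right of the dotted line at 100 reads, the gut transcription factors hold 10 open points of 14, and the broadly used genes 2 of 21.

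Of 35 enterocyte genes, 2 had a start peak in SW480 alone (5.71%, against 1.90% of all genes) and 2 in both. In LS174T alone there were 17 (48.6%, against 29.2% of all genes). The LS174T-alone genes included VIL1, the villin of the brush border, with 154 reads, and GUCA2A, the guanylin precursor, with 171 reads. With a window of 250 bases GUCA2A had a peak in neither line, and with 2500 bases in both. APOA1 had 146 reads, SLC5A1, the sodium-glucose transporter, 134, DPP4 87 and MYO1A 91. The SW480-alone members were VIPR1, a receptor for vasoactive intestinal peptide, with 14 reads and CA4, a carbonic anhydrase, with 6 reads, the lowest pileup called in SW480. VIPR1 was open in both lines with a window of 2500 bases, and CA4 in neither with 250. At a -log10 q of at least 5 both had a peak in neither line. CDHR5, a protocadherin of the brush border, had 43 reads in SW480 and 107 in LS174T, in peaks that lie near the gene but do not overlap.

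Of 32 goblet and secretory genes, 0 had a start peak in SW480 alone, 15 in LS174T alone (46.9%, against 29.2% of all genes), 7 in both and 10 in neither. Since 1.90% of all genes were open in SW480 alone, a count of 0 does not set a list of this size apart. In LS174T alone were TFF3, a trefoil peptide of mucus, with 142 reads, AGR2 with 102, MUC13 with 94, AGR3 with 86, GCNT3 with 84 and ST6GALNAC1 with 89 reads. ATOH1 had 39 reads in LS174T alone. MUC2, the main gel-forming mucin, and SPDEF, a goblet cell factor, had a start peak in neither line. MUC1 had 22 reads in SW480 and 85 in LS174T, and MUC5B had 19 reads in SW480 and 177 in LS174T. Of 24 enteroendocrine genes, 0 were open in SW480 alone, 12 in LS174T alone and 1, CHGB, in both. ISL1, a LIM-homeobox factor of endocrine cells, had 160 reads in LS174T and passed the limit. SCG2 with 64 reads, SCT with 107, PYY with 70, SCG3 with 42 and TPH1 with 41 reads did not. SCT and PYY were open in neither line with a window of 250 bases and in both with 2500.

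Epithelial junction and keratin genes were divided. Of 38, 0 had a start peak in SW480 alone, 18 in LS174T alone (47.4%, against 29.2% of all genes) and 15 in both. CDH1, encoding E-cadherin, had 113 reads and KRT18 172 reads in LS174T alone, as did CRB3 with 173, MARVELD2 with 110, ST14 with 122 and RAB25 with 116 reads. DSG2, a desmosomal cadherin, had 126 reads and passed the limit, the only one of the 18 to do so. KRT8, the partner keratin of KRT18, was open in both lines with 64 reads in SW480 and 290 in LS174T. EPCAM had 10 reads in SW480 and 145 in LS174T. Of 10 markers of colorectal epithelium, SW480 had a start peak at 3 (KRT8, KRT19 and EPCAM). LS174T had a peak at the start or an end of all 10, that of CDX1 lying beside its 3′ end. CDX1 and CDH17 had a peak in neither line with a window of 250 bases. At a -log10 q of at least 5, CDH17 had none in either line, and KRT19 and EPCAM had none in SW480. None of the markers called in LS174T alone passed the calling limit.

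**Figure D3:**
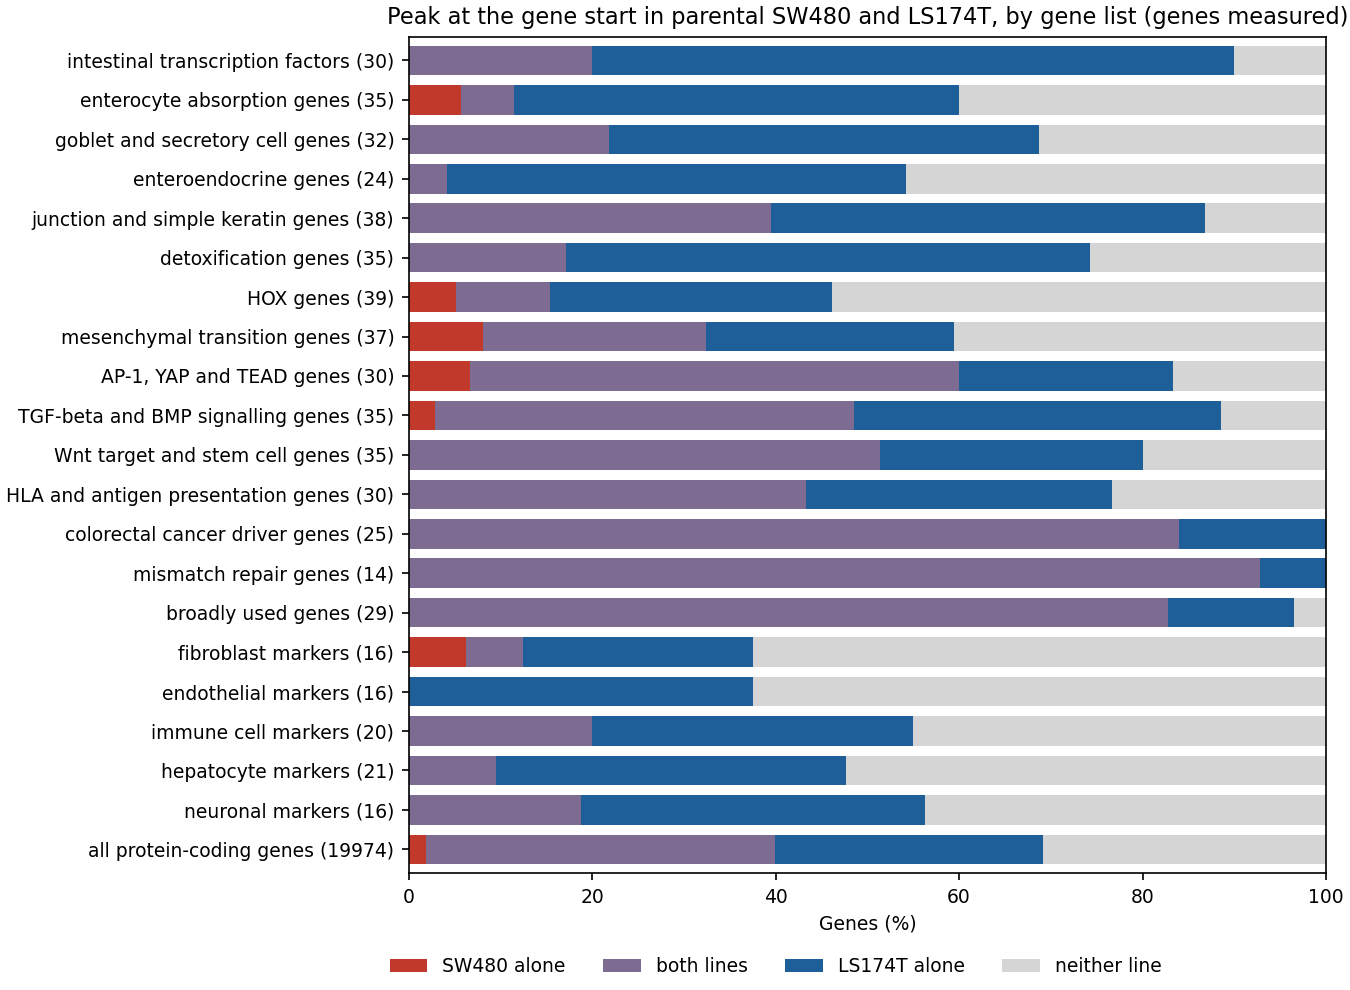
Share of genes (horizontal axis, %) with a start peak in SW480 alone, in both lines, in LS174T alone and in neither, for 20 gene lists and all protein-coding genes, with the number of genes measured in brackets. Gut transcription factors reach 70.0% in LS174T alone against 29.2% of all genes, and colorectal cancer driver and mismatch repair genes are mostly open in both lines.

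Mesenchymal transition genes held the most SW480-alone members of the 20 lists. Of 37, 3 had a start peak in SW480 alone (8.11%, against 1.90% of all genes), 10 in LS174T alone, 9 in both and 15 in neither. VIM, the intermediate filament of mesenchymal cells, had 17 reads at chr10:17228456-17228820, where LS174T was expected to have 183 reads and needed 53. COL1A1, a fibrillar collagen, had 20 reads, and FN1, fibronectin, had 9 reads. With a window of 2500 bases around the start, an LS174T peak came within reach of VIM and of COL1A1, and FN1 kept its state. With a window of 250 bases COL1A1 had a peak in neither line, and at a -log10 q of at least 5 FN1 had none. The LS174T-alone members had 28 to 61 reads. ZEB1, a repressor of epithelial genes, had 51 reads, TGFBI 61, TNC 44, ITGB6 40, SNAI1 50 and COL1A2 34 reads, and those of TNC, SNAI1 and COL1A2 fell outside a window of 250 bases. Of the 9 shared starts, 8 had a scaled ratio above the median of all genes, led by AXL, a receptor tyrosine kinase, with 32 reads in SW480 and 66 in LS174T. Their median log2 scaled ratio was 0.96, against 0.41 with 6 of 9 above 0 when set against start peaks of similar LS174T pileup.

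Of 39 HOX genes, 2 were open in SW480 alone, 12 in LS174T alone (30.8%, against 29.2% of all genes), 4 in both and 21 in neither (53.8%, against 30.9%). These counts depend on the window. LS174T-alone genes numbered 6 and genes open in neither 27 with 250 bases, and 21 and 11 with 2500 bases. HOXC10 had 17 reads in SW480 alone, and was open in both lines with 2500 bases. HOXA10 had 140 reads, HOXA5 121, HOXA11 91, HOXB7 54, HOXD9 47 and HOXD13 40 reads in LS174T alone. Of 18 SW480 peaks nearest to a HOX gene within 100 kb, 12 had no LS174T peak (66.7%, 41.0 to 86.7%), against 23.9% of SW480 peaks near any gene. HOX genes lie in clusters, and the interval treats neighbouring peaks as independent. Over the lists this share ran from 5.0% of 20 peaks near detoxification genes to 77.8% of 9 near neuronal markers. It was 57.1% of 7 for fibroblast and 55.6% of 9 for endothelial markers, so a high share was not particular to HOX genes. Of 30 AP-1, YAP and TEAD genes, 2 were open in SW480 alone (6.67%, against 1.90% of all genes). These were JUNB with 17 reads and ANKRD1, a YAP target, with 9 reads. At a -log10 q of at least 5 both had a peak in neither line, and with a window of 2500 bases JUNB was open in both. There were 7 in LS174T alone (23.3%, against 29.2% of all genes) and 16 in both lines. Among the 7 were CCN1 with 125 reads, PTPN14 with 101, CCN2 with 75, AJUBA with 89, TEAD4 with 64 and ASAP1 with 47. The TEAD4 and ASAP1 peaks fell outside a window of 250 bases, and that of ASAP1 lies beside the 3′ end of the gene. TGFB3, a TGF-beta ligand, had 16 reads in SW480 alone, the only such gene of 35 in its list (2.86%). It was open in neither line with a window of 250 bases and in both when either gene end was used. SKI, a SMAD co-repressor, had 221 reads in LS174T alone and passed the limit, but its peak fell outside a window of 250 bases. ID3 with 211 reads, SMAD1 with 91, BMPR1A with 97, ID2 with 124 and SMAD4 with 67 were among the 14 LS174T-alone genes of that list (40.0%).

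Wnt target and stem cell genes had start peaks in both lines at 18 of 35, in SW480 alone at 0 and in LS174T alone at 10 (28.6%, against 29.2% of all genes). SOX9 had 124 reads in LS174T alone, LGR5, the receptor that marks crypt stem cells, 93, CCND1 142, MYB 99, SP8 74 and SMOC2 55. CCND1 was open in both lines with a window of 2500 bases. The shared genes had a median log2 scaled ratio of 0.55, or 0.26 against start peaks of similar LS174T pileup, and AXIN2, a feedback inhibitor of the pathway, had 23 reads in SW480 and 103 in LS174T. Detoxification genes were open in SW480 alone at 0 of 35, in LS174T alone at 20 (57.1%) and in both at 6. ALDH3A1 had 154 reads in LS174T, SULT1A1 112, SULT2B1 139, MGST1 91, UGT8 90 and GSTP1 125.

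Genes of DNA mismatch repair were open in both lines at 13 of 14, and RFC1 with 119 reads was the exception, open in LS174T alone. Of 25 colorectal cancer driver genes, 21 were open in both lines and 4 in LS174T alone, among them SOX9 with 124 reads, SMAD4 with 67 reads and BRAF with 56 reads. Of 30 HLA and antigen presentation genes, 13 were open in both, 0 in SW480 alone and 10 in LS174T alone (33.3%, against 29.2% of all genes). CD274, encoding PD-L1, had 124 reads and NLRC5, the activator of HLA class I genes, 154 reads in LS174T alone, as did HLA-DMA with 73, ERAP2 with 42, HLA-F with 44 and CD74 with 46, the last outside a window of 250 bases. B2M had 14 reads in SW480 and 232 in LS174T. Among 29 broadly used genes, 24 were open in both lines, 0 in SW480 alone and 4 in LS174T alone, namely TUBB with 193 reads, RPS3 with 138, PSMB4 with 94 and HPRT1 with 70. TUBB passed the calling limit, with 17.9 reads expected in SW480 where 10 were needed, although it is used by nearly all cells.

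Markers of other cell types were called less often in SW480 than in LS174T, as were genes as a whole. SW480 had a start peak at 2 of 16 fibroblast, 0 of 16 endothelial, 4 of 20 immune, 2 of 21 hepatocyte and 3 of 16 neuronal markers. In LS174T the counts were 5, 6, 11, 10 and 9. Over all genes a start peak was called at 39.9% in SW480 and 67.2% in LS174T. The LS174T-alone shares of these lists, 25 to 38.1%, lie around the 29.2% of all genes. PTPRC, ALB and COL3A1, markers of immune cells, hepatocytes and fibroblasts, had none in either line. Other markers were open in both lines. These were SPI1, CD8A, CD3E and CD14 of immune cells and SERPINA1 and TAT of hepatocytes. ACTA2 of the fibroblast list and GAD1, SNAP25 and RBFOX3 of the neuronal list were so too. COL1A1 with 20 reads was the SW480-alone marker among the 5 lists. In LS174T alone were 4 fibroblast markers (PDGFRA with 72 reads, FBLN2, COL1A2 and THY1) and 6 endothelial markers with 30 to 67 reads (ESAM, PECAM1, VWF, TIE1, KDR and FLT1). There were also 7 immune markers with 35 to 58 reads (among them IKZF1, CSF1R, CD4, ITGAM and IKZF3) and 6 neuronal markers with 32 to 70 reads (ELAVL4, SLC17A6, STMN2, NEFM, GAD2 and TUBB3). With a window of 250 bases the LS174T-alone counts were 2 fibroblast, 1 endothelial, 5 immune and 4 neuronal markers. The 8 hepatocyte markers in LS174T alone included PCK1, an enzyme of gluconeogenesis, with 203 reads and past the limit, APOA1, TF, FGA and CYP2C8. APOA1 also stands in the enterocyte list.

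The lists were also compared at equal length, with the 16347 LS174T peaks of best -log10 q set against the same number from SW480. A start peak in SW480 alone was then found at 2173 genes (10.9% of all) and in LS174T alone at 1671 (8.37% of all). Gut transcription factors had 3 in SW480 alone (FOXA2, VDR and OVOL1) and 9 in LS174T alone, including GATA6, CDX1, GRHL2 and HNF4A. CDX2 then had a start peak in neither list. Enterocyte genes had 3 in SW480 alone and 7 in LS174T alone, and junction and keratin genes 3 and 8. Detoxification genes had 1 in SW480 alone and 6 in LS174T alone. Mesenchymal genes went the other way, with 9 of 37 in SW480 alone and 0 in LS174T alone. The 9 were VIM, COL1A1, FN1, CD44, CAV1, SNAI2, AXL, MSN and PRRX1. Wnt genes had 8 of 35 in SW480 alone and 3 in LS174T alone, and HOX genes 6 and 2. Broadly used genes leaned to SW480 too, with 6 of 29 in SW480 alone and 3 in LS174T alone. AP-1, YAP and TEAD genes had 5 and 2, TGF-beta and BMP genes 6 and 4, and neuronal markers 3 and 0. A lean to SW480 at equal length was thus not particular to the mesenchymal and Wnt lists. Goblet and secretory genes had 4 in each line, so that the imbalance in the full lists did not hold for them at equal length.

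At the 7596 genes with a start peak in both lines, pileups were compared as the SW480 to LS174T ratio divided by its median, 0.125, on a log2 scale. From the 5th to the 95th percentile this scaled log2 ratio ran from -0.99 to 1.09. It was 4 times higher in SW480 or more, with an interval that left out the median, at 16 genes (0.211%), and 4 times lower at 1 gene (0.0132%). ADAM22 was highest, with 32 reads in SW480 and 39 in LS174T, 6.56 times the median ratio (3.98 to 10.8). MYC had 70 reads in SW480 and 99 in LS174T, 5.66 times the median ratio (4.10 to 7.76), but these are different peaks, at the start in SW480 and at the other end of the gene in LS174T. KLF12, CST7, ZNF223, STARD3NL, ACTN1, which encodes an actinin that crosslinks actin, and TSPAN9 followed, at 4.36 to 5.41 times. The 1 gene lower in SW480 was UTP3, a ribosome biogenesis factor, with 7 reads in SW480 and 226 in LS174T, 0.248 times the median ratio (0.0985 to 0.519). The best peaks of the lines did not overlap at 560 of the 7596 genes, MYC, KLF12, CDKN2A, CTSL, CD3E and FARP1 among the 17. With the LS174T peak that overlaps the SW480 start peak, for 7319 genes, 17 were higher and 1 lower, 14 of them among the first 17. MYC then had 70 reads in SW480 and 110 in LS174T, 5.09 times the median ratio (3.72 to 6.93). TUBA1A, a tubulin gene, RUSC2 and PRKCZ, an atypical protein kinase C, were among those that came in. Since the smallest pileup called in SW480 was 6 reads, weak LS174T peaks could be matched only by high ratios. Against start peaks of similar LS174T pileup, MYC was the only one of the 17 past the fold, with a log2 ratio of 2.37 for its 70 and 99 reads. With the authors' fold enrichments in place of pileups, 0 genes were past it. HMG20B, a chromatin protein named by the series title, had 16 reads in SW480 and 235 in LS174T, 0.545 times the median ratio (0.306 to 0.903).

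**Figure D4:**
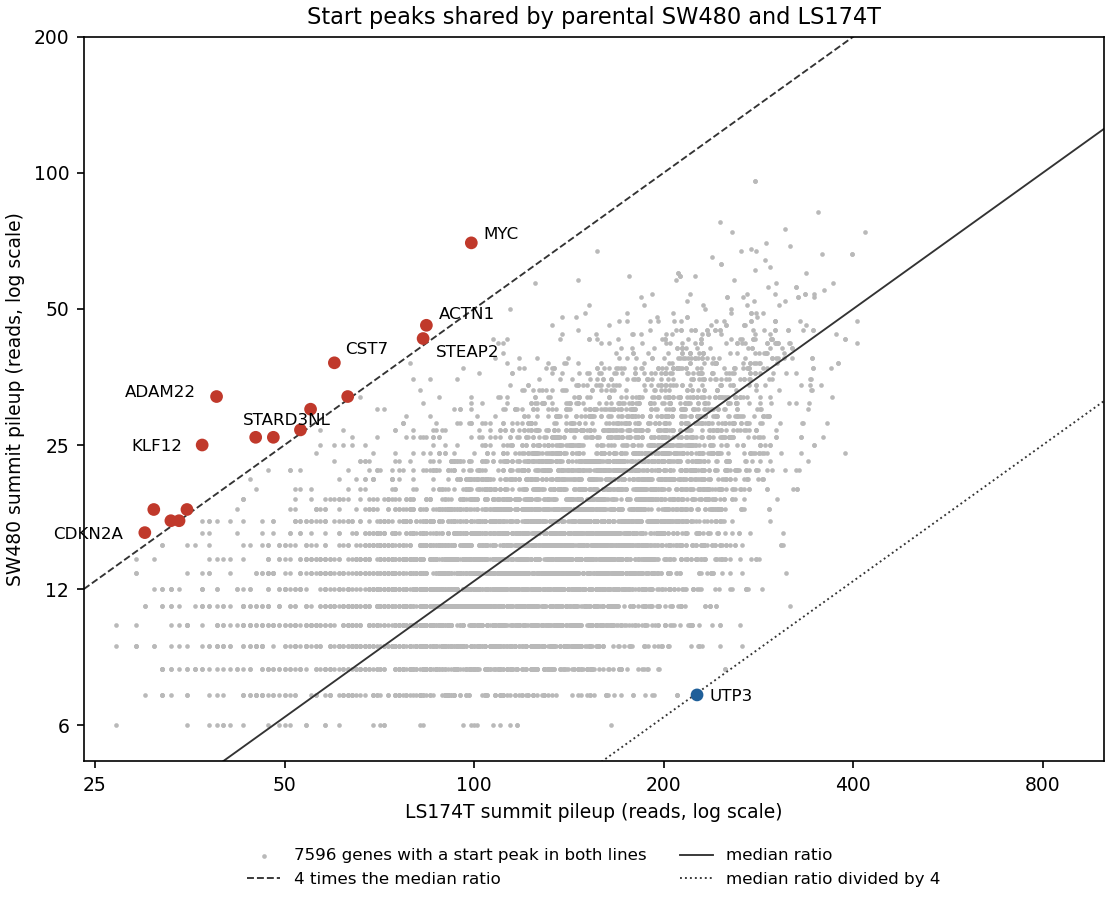
Summit pileup at the gene start in SW480 (vertical axis, reads, log scale) against LS174T (horizontal axis, reads, log scale) for the 7596 genes with a start peak in both lines, each line's best peak being plotted whether or not the peaks overlap, with lines at the median ratio of 0.125 and at 4 times above and below it. Red points are the 16 genes past the upper line with 95% intervals that leave out the median, among them ADAM22 with 32 and 39 reads, and the blue point is UTP3 with 7 and 226 reads.

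The stretch around MYC differed as a whole. In 288 windows of 5 Mb with at least 20 SW480 peaks and 10 shared ones, the median log2 ratio of shared peaks, centred on all 12126, ran from -0.78 to 1.39. The highest value belonged to the window from 125 to 130 Mb of chromosome 8, 2.62 times the ratio of all shared peaks, and the next window reached 0.84. Of its 43 shared peaks, 40 lay above the centre. Of its 75 SW480 peaks, 32 had no LS174T peak (42.7%, 31.3 to 54.6%), against 25.8% of all SW480 peaks. The median local background of its peaks was 4.62 reads in SW480, against 1.73 over all SW480 peaks, while in LS174T it was 13.5 reads, against 14.5 over all LS174T peaks. Within it, the median log2 ratio was 1.52 in the 1 Mb that holds MYC and 1.20 in the 1 Mb that holds TRIB1, a pseudokinase gene. The 1 Mb before 125 Mb had a median log2 ratio of 0.037, near the centre of all shared peaks. Local background in SW480 was thus also higher there, and the number of copies of this stretch was not measured. Among SW480-only peaks assigned to the nearest gene within 250 kb, MYC had the most, 8 of its 20 SW480 peaks, followed by KIZ and CCDC182 with 7 each, and TRIB1 had 5.

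Whole chromosomes differed by smaller amounts. The median log2 scaled ratio at shared starts was 0.47 on chromosome X, 0.40 on chromosome 7, 0.35 on chromosome 20 and 0.27 on chromosome 9. It was -0.57 on chromosome 4, -0.35 on chromosome 6, -0.32 on chromosome 10 and -0.30 on chromosome 15. SW480 peaks lacked an LS174T peak in 37.2% (33.8 to 40.8%) of cases on chromosome 20 and in 36.0% (31.1 to 41.2%) on X, against 19.0% (14.7 to 23.8%) on chromosome 4 and 18.6% (13.1 to 25.2%) on 18. Strong LS174T peaks lacked an SW480 peak most often on chromosome 4, at 57.6% (51.0 to 63.9%), against 37.1% over all chromosomes. Chromosome X held 369 SW480 peaks, 2.26% of that list, and 911 LS174T peaks, 0.448% of that list. With each shared start set against the median of its own chromosome, the median log2 ratio was 0.90 for mesenchymal genes (0.96 before), 0.46 for Wnt genes (0.55 before), 0.16 for the 4 shared HOX genes (0.42 before) and 0.20 for HLA genes (-0.13 before, so that its sign turned). Copy number was not measured.

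**Figure D5:**
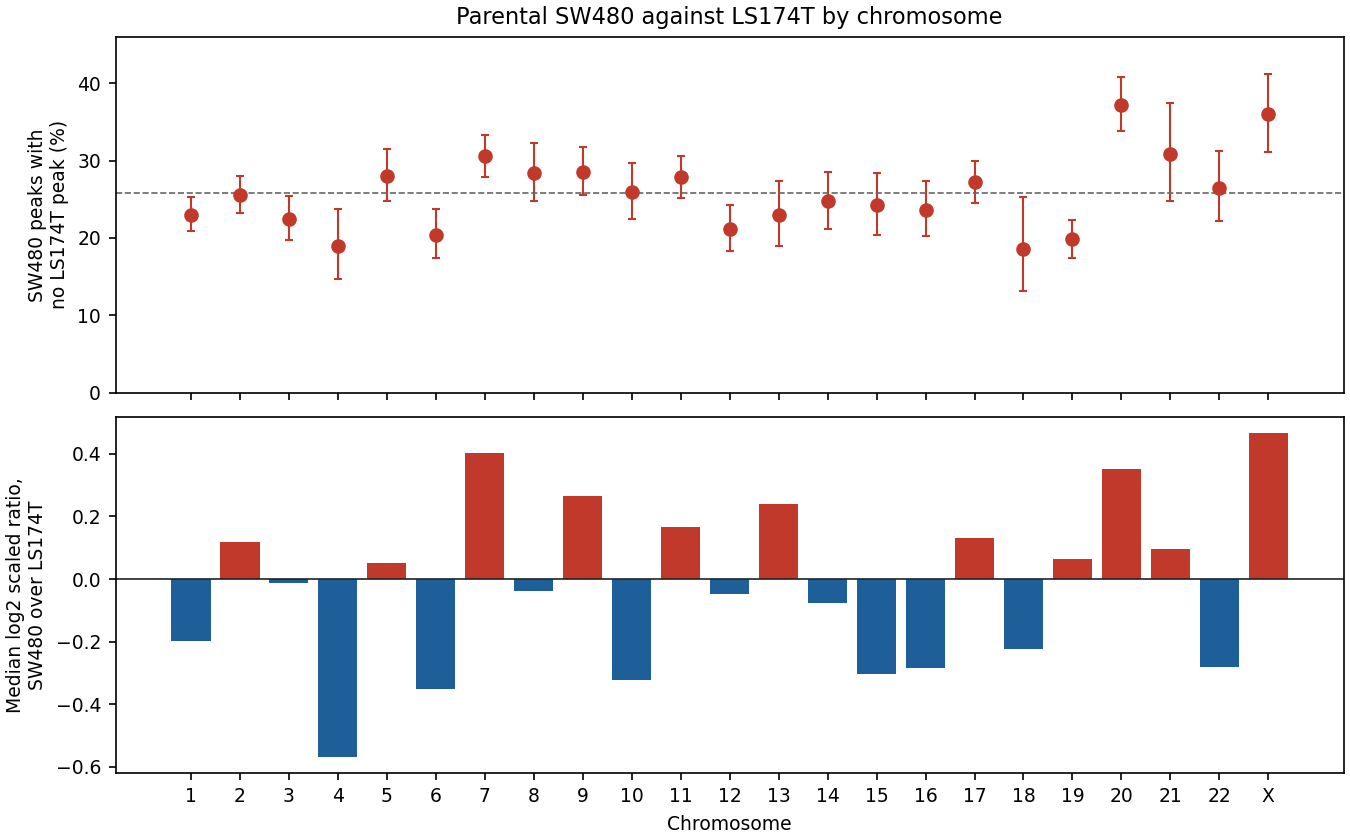
Upper panel: share of SW480 peaks with no LS174T peak (vertical axis, %) on each chromosome (horizontal axis), with 95% intervals as bars and the share over all chromosomes, 25.8%, as a dashed line. Lower panel: median log2 scaled SW480 to LS174T pileup ratio at shared gene starts (vertical axis), which is highest on chromosome X at 0.47 and lowest on chromosome 4 at -0.57.

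Promoters differed in composition by where they were open. The median GC content of the 250 bases before the start was 68.0% for the 289 SW480-alone genes with an annotated start, 60.4% for 4452 LS174T-alone genes, 65.2% for 6424 genes open in both lines and 56.8% for 4645 open in neither. The CpG ratio, observed over expected CG pairs, was above 0.6 in 68.2% (62.5 to 73.5%) of SW480-alone promoters and 59.1% (57.7 to 60.6%) of LS174T-alone promoters. In promoters open in both lines it was above 0.6 in 86.4%. Among the 351 LS174T-alone promoters past the calling limit it was above 0.6 in 76.4% (71.6 to 80.7%), with a median GC content of 60.8%. In that class the CpG share of LS174T was thus the higher one, with intervals that overlap. The GC box GGGCGG, read on both strands, stood in 69.2% of SW480-alone and 51.4% of LS174T-alone promoters, against 56.0% of all 15810. It stood in 57.5% of the LS174T-alone promoters past the limit. Among the 33 LS174T-alone promoters of the gut transcription factor, enterocyte and goblet lists, the median GC content was 53.2%. In all, 14 short words were searched. The GATA word AGATAA stood in 10 of these 33 (30.3%, 15.6 to 48.7%) and in 6.8% of all promoters. It stood in 3 of the 28 other promoters of the same lists (10.7%, 2.27 to 28.2%), with intervals that overlap. The CDX word TTTATNG stood in 8 of the 33, against 9 of the 28 others and 7.7% of all, so that it was no more frequent where LS174T alone was open. These words are short and rich in A and T, and a match describes the sequence and not a bound site.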

How the data were processed

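Bulk ATAC-seq peak lists of parental SW480 and parental LS174T, 1 library each, were compared; the other 8 samples were not used here. Per the submitters' processing notes, tools included Trim Galore 0.6.4, Bowtie2 2.4.1 and MACS2 2.2.6 with build hg38; their order and settings are not given in the sources used here. The deposited lists give the authors' fold enrichment, a ratio of summit to local background, and the authors' -log10 p and -log10 q, with a lowest -log10 q near 1.30, a q of 0.05. The fold and the -log10 values are the authors' own and rank or describe peaks within a list.

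From the fold and -log10 p, the whole summit pileup and local background of 100% of the peaks were recovered, to within 0.0005 of the deposited -log10 p. The recovery, tested on 10000 simulated peaks, returned 100% of pileups, and the calling limit passed 100% of 200 simulated absent regions and 0.615% of 5363 present ones. These rates do not cover the choice of scale, with which the count of absent LS174T peaks ran from 60 to 9869. Peaks on other sequences, 101 in SW480 and 631 in LS174T, were left out. Gene starts came from RefSeq (GRCh38.p14) for 15812 genes and gene ends for 4162, and 373 of 538 list genes had a promoter sequence. The planned scale between the libraries, taken over all LS174T peaks of the top 10% by pileup, came out at 0 because 39.5% of them had an SW480 peak. The value used, 0.0927, is the median over the 7856 of those peaks that lie at gene starts.

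The comparison, gene lists and named genes were chosen with earlier results of these data known. The classes of 100 reads or more and of 100 to under 200, the overlapping pairs, the 5 Mb windows and the promoter words were chosen after values were seen. Genes named were, per line, the 12 line-alone genes of best rank (LS174T past the limit), line-alone list members up to 6 per list and line, the 8 most extreme ratios each way, the 6 distal line-alone peaks of best rank, and defining gut genes. Some genes that the rule names are not reported here. Other genes named as shared or closed are examples chosen after their values were seen. Python 3.11.15, numpy 2.4.6, scipy 1.17.1 and pandas 2.3.3 were used.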

Additional observations from a re-analysis of the deposited data

How the results depend on the processing

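No paired analysis was possible because each line has 1 library and no result comes from a test, and no replicate could be left out. Requiring 50% of a peak to be covered gave shares of 68.6% for SW480 peaks and 3.83% for LS174T peaks. At a -log10 q of at least 5 in both lists the shares were 78.9% for SW480 and 9.41% for LS174T, SW480-alone genes numbered 217, and peaks absent from the other line past the limit numbered 1950 for SW480 and 200 for LS174T. With lists of equal length the shares were 43.8% for SW480 and 42.99% for LS174T, and the line-alone genes 2173 for SW480 and 1671 for LS174T, so that the excess of LS174T-alone genes reversed. LS174T peaks absent past the limit numbered 60 with the ratio of genome backgrounds as scale and 9869 with the median ratio of all shared peaks, so that this count rests on the scale. SW480 peaks absent past the limit numbered 1733 among those of at least 14 reads. Genes past the fold at shared starts numbered 17, against 0 with the authors' fold enrichments, 11 with centring by chromosome and, chosen after seeing the data, 1 against peaks of similar LS174T pileup; with overlapping pairs of peaks, also added later, it was 18. The results stayed within the interval of the reported share or within 1.5 times the reported count on autosomes alone, with windows of 250 and 2500 bases, with either gene end for all genes and within 500 kb of a gene start. Of the list genes, 7 of 10 SW480-alone and 154 of 197 LS174T-alone calls were kept with a window of 250 bases, and 5 and 189 with 2500. Depth limits the comparison: at the scale used, 2.74% of LS174T peaks were strong enough for their absence from SW480 to exceed counting error.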
